A study of Homo sapiens with 60 samples.

Results

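The 10 genes of the BCL2 family described here are BMF, BBC3, BCL2L11, BIK, PMAIP1 and BID, which encode BH3-only proteins, BCL2, BCL2L1 and MCL1, which encode pro-survival proteins, and BAX, which encodes an effector. They were chosen by name, and all 10 were found among the 38342 gene names measured and among the 15866 genes that had at least 1 FPKM (reads per M reads of the library, divided by transcript length in kilobases) in at least 3 libraries and were tested. BIK passed that filter through 7 of the 60 libraries, BBC3 through 18 and BCL2 through 21. MDA-MB-231, an established triple-negative breast cancer line, was treated with the compound BAY2506856 or with its vehicle DMSO, and polyadenylated RNA was sequenced. The groups were DMSO (6 libraries at each time) and 100, 300 and 1000 nM BAY2506856 (3 libraries at each dose and time), after 1, 3, 6 and 24 h. The series' design text names only the 24 h harvest. A single cell line was used, and nothing says that the libraries of a group came from separate cultures, so the p-values rest on the spread between libraries of a group, which may be technical.

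Proteins of this family decide whether the outer mitochondrial membrane is opened, which releases cytochrome c and starts caspase activation. Pro-survival proteins hold the effectors BAX and BAK1 in check, and BH3-only proteins bind the pro-survival proteins or activate the effectors directly. Many BH3-only genes are controlled at the level of their transcripts, and epithelial tumour cells often depend on BCL2L1 and MCL1 for survival.

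In cells treated with BAY2506856, members of the family changed at 6 h and at 24 h. After 6 h the BH3-only transcripts BMF and BCL2L11 were higher and the pro-survival transcript MCL1 was lower at each of the 3 doses. After 24 h BMF, BBC3 and BID were higher and BCL2 was lower at each dose, whereas MCL1 did not pass the test and BCL2L11 was no longer higher. No member passed the test after 1 or 3 h. The most abundant member, BCL2L1, was lower after 6 h within the first of 3 library types described further on, but did not pass the test over all libraries.

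The promoters of 3 BH3-only genes that were higher are shown. BCL2L11 and BMF were higher together at 6 h, and BBC3 passed the test at 24 h. BID passed it at 24 h too, and its windows are described below but not printed. Each window runs from 250 bases before to 50 after the start of transcription, as given by RefSeq on GRCh38.p14, with a motif found by search in capitals. BCL2L11 lies at chr2:111120664-111120963 on the plus strand, BMF at chr15:40108830-40109129 on the minus strand and BBC3 at chr19:47232618-47232917 on the minus strand.
BCL2L11: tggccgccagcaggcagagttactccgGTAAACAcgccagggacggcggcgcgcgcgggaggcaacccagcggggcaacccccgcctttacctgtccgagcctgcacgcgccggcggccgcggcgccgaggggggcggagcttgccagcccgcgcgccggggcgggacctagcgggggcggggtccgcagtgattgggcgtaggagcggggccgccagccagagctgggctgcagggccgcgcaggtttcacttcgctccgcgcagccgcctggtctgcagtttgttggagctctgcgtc
BMF: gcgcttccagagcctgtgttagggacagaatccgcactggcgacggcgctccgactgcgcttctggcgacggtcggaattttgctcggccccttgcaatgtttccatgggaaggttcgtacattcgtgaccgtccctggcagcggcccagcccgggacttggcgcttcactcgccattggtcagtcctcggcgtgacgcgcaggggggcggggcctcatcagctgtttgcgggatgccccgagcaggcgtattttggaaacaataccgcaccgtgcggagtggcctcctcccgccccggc
BBC3: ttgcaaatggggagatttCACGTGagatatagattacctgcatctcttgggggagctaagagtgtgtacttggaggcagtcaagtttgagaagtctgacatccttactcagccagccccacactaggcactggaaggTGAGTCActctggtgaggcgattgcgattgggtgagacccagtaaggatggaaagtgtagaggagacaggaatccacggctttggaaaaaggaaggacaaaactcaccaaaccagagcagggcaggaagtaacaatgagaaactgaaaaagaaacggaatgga
The letters GTAAACA, a forkhead motif of the forkhead box O type, were searched on both strands. In the BCL2L11 window they occurred once, starting 223 bases before the start. They were found in 3.42% of the 35116 promoters of the same length in the table. The E-box letters CACGTG occurred in the BBC3 window 232 bases before the start, and in 7.26% of all promoters. The AP-1 letters TGACTCA, which appear here on the other strand, occurred in the BBC3 window 113 bases before the start, and in 4.95% of all promoters. No letters of these 3 motifs were found in the BMF window or in the other BMF window of the table, and the motifs do not overlap one another in BBC3. The BAX window (chr19:48954625-48954924, plus strand) held CACGTG 4 times, and BID had 5 windows on chromosome 22, of which 2 held CACGTG once each. These 2 windows overlap, and the site is the same one in both. The windows of PMAIP1, BCL2 and BCL2L1 held none of the 3 motifs. Of the 10 members, 8 had windows in the table, and MCL1 and BIK had none.

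Depth, recovered from the FPKM steps, ranged between 0.475 and 86.5 M reads (median 11.2 M), and 3 libraries had under 2 M. Libraries fell into 3 types by values that the labels do not record. In 13 libraries (the second type) the mean of 6 pseudogenes minus that of 5 others was positive on the log2 scale, 2.31 to 4.62, against -3.23 to -1.92 in the 41 libraries of the first type. The third type was 6 DMSO libraries at 1 and 3 h with MT-ND6 at 56.9 to 105 FPKM, against 0.85 to 5.71 in the first type. The second type held 9 of the 36 treated and 4 of the 24 DMSO libraries, and 2 of the 3 libraries at 1000 nM were of this type at 1 h and at 24 h. Markers of the line were present (VIM, 397 to 642 FPKM). Of the receptors expected to be absent or low, ESR1 was at 0 in 59 of 60 libraries. PGR was at 0 in 44 libraries and reached at most 0.0128 FPKM. ERBB2 was present in every library, at 4.75 to 10.6 FPKM (median 8.73). The 5 measured markers of other cell types summed to at most 0.0804 FPKM in treated and 0.111 FPKM in DMSO libraries. CD3E was at 0 in all 60.

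In DMSO cells, over 24 libraries of 4 times, the levels of the members spanned a wide range of FPKM, which is a level per length. BCL2L1, the gene of BCL-XL, had the highest level, 164 ± 22.7 FPKM (mean ± SD, n = 24), followed by MCL1 at 64.3 ± 3.52 FPKM. PMAIP1, the gene of NOXA, a BH3-only protein that binds MCL1, had 32.2 ± 5.76 FPKM, and BAX, an effector that opens the outer membrane, had 28.5 ± 6.32 FPKM. PMAIP1 and BAX did not differ beyond their spread. BID, a BH3-only protein that caspase-8 cleaves, was next at 7.92 ± 0.737 FPKM, and BCL2L11, the gene of BIM, had 3.69 ± 0.417 FPKM. The other 4 members were near 1 FPKM: BMF, whose protein is held by dynein light chain, had 1.02 ± 0.239 FPKM and BCL2 had 0.981 ± 0.204 FPKM. BIK had 0.704 ± 0.393 FPKM and BBC3, the gene of PUMA, had 0.631 ± 0.336 FPKM. BMF and BCL2 did not differ beyond their spread, and neither did BIK and BBC3.

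**Figure D1:**
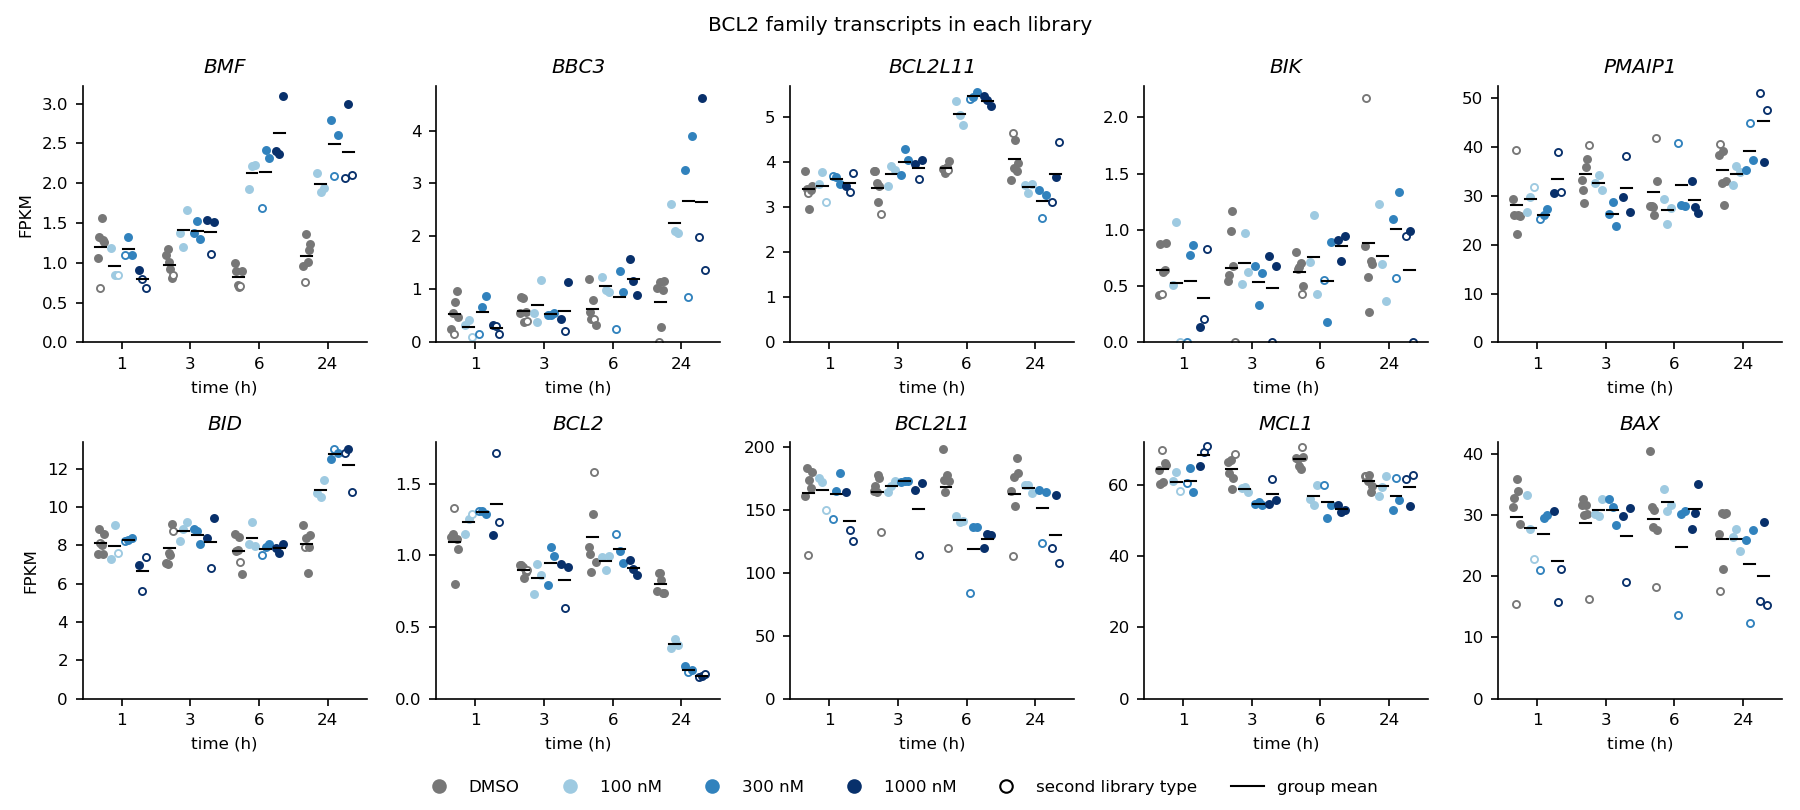
Level in FPKM (vertical axes, from 0) of each of the 10 members in each of the 60 libraries, by time in h (horizontal axes) and, within a time, DMSO, 100, 300 and 1000 nM from left to right; open points are libraries of the second type and black lines are group means. BMF lies above DMSO at 6 h and 24 h, BCL2 lies below DMSO at each dose at 24 h, and BAX and BCL2L1 are low in open points in treated and DMSO groups alike.

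Among the BH3-only genes, BMF and BCL2L11 rose after 6 h. BMF had 0.692 to 1 FPKM in DMSO libraries (median 0.804), 1.93, 2.21 and 2.23 FPKM at 100 nM, 1.69, 2.42 and 2.32 FPKM at 300 nM, and 2.41, 2.37 and 3.1 FPKM at 1000 nM. Every treated library was above every DMSO library. On the log2(FPKM + 0.5) scale the change against DMSO was 1.00 ± 0.13 at 100 nM, 1.00 ± 0.13 at 300 nM and 1.25 ± 0.13 at 1000 nM (SE, limma adjusted p = 9.46e-07, 4.66e-07 and 1.38e-09). The ratio of the FPKM means was 2.6, 2.62 and 3.22 at these doses. The changes of the 3 doses at a time share their DMSO libraries. The 95% interval of the difference between 1000 and 100 nM was -0.06 to 0.55 on the log2 scale, so a step with dose was not shown.

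BCL2L11, whose BIM protein both binds pro-survival proteins and activates BAX, had 3.77 to 4.03 FPKM in DMSO libraries at 6 h (median 3.85), 5.36, 5.05 and 4.83 FPKM at 100 nM, 5.42, 5.45 and 5.56 FPKM at 300 nM, and 5.48, 5.38 and 5.25 FPKM at 1000 nM. All 9 treated libraries were above the 6 DMSO libraries. The log2 change was 0.35 ± 0.08, 0.45 ± 0.08 and 0.43 ± 0.08 at 100, 300 and 1000 nM (SE, limma adjusted p = 0.0118, 0.000194 and 0.000507). Without replicate 1 or replicate 2 at 100 nM the 100 nM call was lost (adjusted p up to 0.163). The gene MIR4435-2HG overlaps BCL2L11 on the opposite strand, with a median of 16.6 FPKM. The libraries were stranded, but a strand setting of the counting is not stated. At 1000 nM MIR4435-2HG changed by -0.14 at 6 h (adjusted p = 0.642) and fell by 0.35 at 24 h (adjusted p = 0.000114).

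MCL1, a short-lived pro-survival protein that binds BIM, PUMA and NOXA, fell at the same time. It had 64.6 to 70.6 FPKM in DMSO libraries at 6 h (median 67.4), 56.1, 54.4 and 59.9 FPKM at 100 nM, 60, 50.8 and 54.5 FPKM at 300 nM, and 54.4, 52.5 and 53 FPKM at 1000 nM. Every treated library was below every DMSO library. The log2 change was -0.24 ± 0.06, -0.29 ± 0.06 and -0.33 ± 0.06 at 100, 300 and 1000 nM (SE, limma adjusted p = 0.0156, 0.000997 and 9.73e-05). Leaving out replicate 1 or replicate 2 at 100 nM ended the 100 nM call (adjusted p up to 0.28), and leaving out replicate 2 at 300 nM ended the 300 nM call (adjusted p = 0.0543).

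Of the 10 members, 2 were called higher and 1 lower at each dose after 6 h. Called in either direction were 0.863%, 1.67% and 2.01% of all 15866 tested genes at 100, 300 and 1000 nM. The members were chosen with earlier results of these data known, so these shares are a description and not a test of the family. Of all tested genes, 0.208% were called higher and 0.655% lower at 100 nM, 0.561% and 1.11% at 300 nM, and 0.706% and 1.3% at 1000 nM. With each comparison fitted on its own 2 groups, the calls of BCL2L11 and MCL1 at 100 nM and of MCL1 at 300 nM were lost (adjusted p = 0.0672, 0.216 and 0.223). The median log2 change of the 6 BH3-only members was 0.24, 0.13 and 0.35 at 100, 300 and 1000 nM, and that of the 3 pro-survival members was -0.22, -0.29 and -0.33. The median of all tested genes was 0.01, -0.01 and 0.00 on the same scale. Between 1000 and 100 nM at 6 h 0 members were called, with 0.0189% of all tested genes called.

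BCL2L1, which binds BAX, BAK1 and most BH3-only proteins, stood apart by library type at 6 h. It had 120 to 198 FPKM in DMSO libraries (median 174), 145, 140 and 141 FPKM at 100 nM, 84.1, 136 and 136 FPKM at 300 nM, and 120, 131 and 130 FPKM at 1000 nM. The lowest DMSO library and the lowest 300 nM library were of the second type, and the other 5 DMSO libraries had 164 to 198 FPKM, above every treated library. Over all libraries the log2 change was -0.22 ± 0.15, -0.51 ± 0.15 and -0.38 ± 0.15 at 100, 300 and 1000 nM and did not pass the test (limma adjusted p = 1, 0.0754 and 0.333). With terms for the library types in the fit, which were added with earlier results known, it was -0.30 ± 0.06, -0.43 ± 0.06 and -0.46 ± 0.06 (adjusted p = 0.00172, 2.58e-06 and 5.16e-07), and the 300 nM change also passed with voom on recovered reads (-0.49, adjusted p = 0.0278) and without the libraries under 2 M reads (adjusted p = 0.021). Within the first type it was -0.32, -0.38 and -0.48 (adjusted p = 0.000185, 9.74e-05 and 1.4e-07).

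After 1 and 3 h no member passed the test at any dose. The share of all tested genes called was 0% at each dose after 1 h and 0.0693%, 0.126% and 0.132% at 100, 300 and 1000 nM after 3 h. The lowest unadjusted p of a member was 0.00403 at 1 h, for BID at 1000 nM (5.6 to 7.36 FPKM, against 7.56 to 8.87 FPKM in DMSO cells; log2 change -0.27 ± 0.09, adjusted p = 0.477). At 3 h it was 0.000155, for MCL1 at 300 nM (54.3 to 55.2 FPKM, against 58.9 to 68.7 FPKM in DMSO cells; log2 change -0.23 ± 0.06, adjusted p = 0.117). BMF had 0.808 to 1.17 FPKM in DMSO libraries at 3 h (median 0.965), 1.37, 1.2 and 1.66 FPKM at 100 nM, 1.38, 1.53 and 1.3 FPKM at 300 nM, and 1.54, 1.11 and 1.51 FPKM at 1000 nM. All treated libraries but 1, a 1000 nM library of the second type with 9 reads for BMF, were above the DMSO libraries. Its log2 change at 1000 nM was 0.35 ± 0.13 at 3 h (limma adjusted p = 0.507), and 0.46 with the type terms (adjusted p = 0.0405). The 1000 nM effect on BMF was larger at 6 h than at 3 h by 0.89 ± 0.19 on the log2 scale (adjusted p = 0.0105), 1 member of 10 called, with 0.227% of all tested genes called. Leaving out the library with 1.11 FPKM at 3 h, or replicate 3 at 6 h, ended this call (adjusted p up to 0.127), and so did leaving out the third library type (0.78, adjusted p = 0.0876) and a fit of only the groups compared (adjusted p = 0.0647). From 1 h to 3 h 0 members were called, with 0.0504% of all tested genes called, and with the type terms BMF was (0.63, adjusted p = 0.0389).

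**Figure D2:**
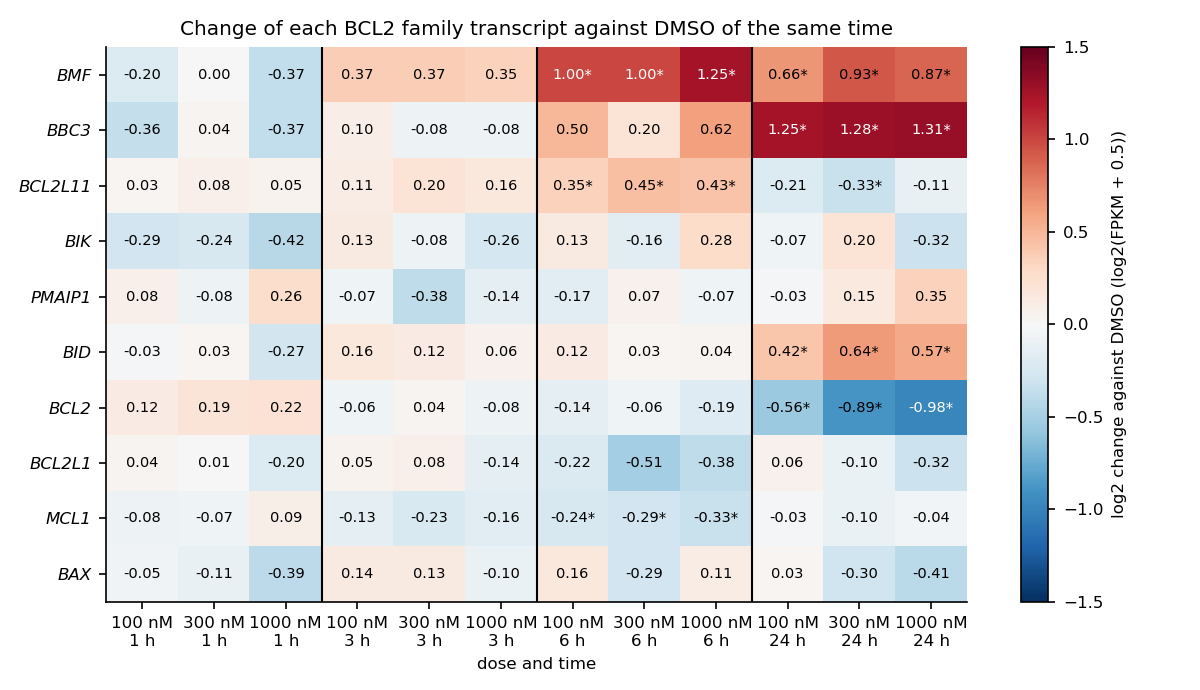
Log2 change against DMSO of the same time, on the log2(FPKM + 0.5) scale, for each member (down the page) at each time and dose (columns, low to high); red is higher and blue lower than DMSO, and an asterisk marks a limma adjusted p under 0.05. Asterisks appear only in the 6 h and 24 h blocks, on BMF, BCL2L11 and MCL1 at 6 h and on BMF, BBC3, BID, BCL2 and, at 300 nM, BCL2L11 at 24 h.

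At 24 h BCL2, the founding pro-survival member, fell at each dose. It had 0.735 to 0.879 FPKM in DMSO libraries (median 0.787), 0.354, 0.418 and 0.371 FPKM at 100 nM, 0.225, 0.185 and 0.197 FPKM at 300 nM, and 0.153, 0.16 and 0.168 FPKM at 1000 nM. The 4 groups did not overlap, and each dose lay below the one before it. Between 300 and 1000 nM the gap was narrow and rested on few reads (0.185 FPKM from 4 reads and 0.168 FPKM from 5). The FPKM mean at 1000 nM was 0.2 of that in DMSO, with 0.253 at 300 nM and 0.476 at 100 nM. The log2(FPKM + 0.5) change, which understates the change of so low a gene, was -0.56 ± 0.10, -0.89 ± 0.10 and -0.98 ± 0.10 at 100, 300 and 1000 nM (SE, limma adjusted p = 4.09e-05, 9.67e-10 and 5.75e-11). Fitted on recovered reads with voom it was -1.08, -1.96 and -2.32. Reads for BCL2 were few in 2 of the 1000 nM libraries, 4 and 5, and 58 in the other. The DMSO library at 0.878 FPKM also had only 5 reads.

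BCL2 was also the only member to pass the test between doses over all libraries. At 1000 nM it was lower than at 100 nM by a log2 change of -0.41 ± 0.12 (limma adjusted p = 0.0284), 1 member of 10, with 4.94% of all tested genes called. This call was lost when any of the 3 libraries at 100 nM, or replicate 1 or 3 at 1000 nM, was left out (adjusted p up to 0.122), and in a fit of only these 2 groups (adjusted p = 0.397), whereas voom gave -1.24 (adjusted p = 0.000923). In libraries of the first type it was -0.42 (adjusted p = 0.0511), with 1 library left at 1000 nM that is assumed to vary like the other groups. Between 300 and 100 nM the change was -0.33 ± 0.12 (adjusted p = 0.271, 0.02 with a pseudocount of 0.1 and 0.00215 with voom; 1.17% of all tested genes called) and between 1000 and 300 nM it was -0.09 ± 0.12 (95% interval -0.33 to 0.15; adjusted p = 0.907; 0.0126% called). In these 2 dose steps 0 members were called. With the library type terms BMF too was higher at 1000 than at 100 nM, by 0.38 (adjusted p = 0.0329).

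BBC3, whose PUMA protein binds all the pro-survival members, had the largest change of the members at 24 h on the log2(FPKM + 0.5) scale. By the ratio of FPKM means at 1000 nM, BCL2 changed more, 4.99-fold lower beside 3.47-fold higher for BBC3. It had 0 to 1.15 FPKM in DMSO libraries (median 1.01), 2.62, 2.1 and 2.06 FPKM at 100 nM, 3.26, 0.854 and 3.9 FPKM at 300 nM, and 1.98, 4.61 and 1.37 FPKM at 1000 nM. The 100 and 1000 nM libraries were all above DMSO, and 1 library at 300 nM, of the second type and with 5 reads for BBC3, overlapped it. The 0 came from a DMSO library of 0.475 M reads, where a count of 0 allows up to 1.95 FPKM (3 reads, counting error only). The log2 change was 1.25 ± 0.34, 1.28 ± 0.34 and 1.31 ± 0.34 at 100, 300 and 1000 nM (SE, limma adjusted p = 0.00633, 0.00286 and 0.00203). Without replicate 2 at 1000 nM the adjusted p was 0.061, and without replicate 3 at 300 nM it was 0.0627. Fitted on only the groups compared, it was 0.0781, 0.122 and 0.0856 at 100, 300 and 1000 nM. With the library type terms the change was 1.11, 1.42 and 1.72 (adjusted p = 0.000423, 5.72e-06 and 2.34e-07). The second library type itself was lower for BBC3 by a coefficient of -0.81 ± 0.13. At 6 h the BBC3 change at 1000 nM was 0.62 ± 0.34 (adjusted p = 0.758).

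BID had 6.57 to 9.03 FPKM in DMSO libraries at 24 h (median 8.16), 10.7, 10.5 and 11.4 FPKM at 100 nM, 12.5, 13 and 12.8 FPKM at 300 nM, and 12.8, 13 and 10.8 FPKM at 1000 nM. Every treated library was above the DMSO libraries. The log2 change was 0.42 ± 0.09, 0.64 ± 0.09 and 0.57 ± 0.09 at 100, 300 and 1000 nM (SE, limma adjusted p = 0.000502, 1.74e-07 and 1.31e-06). The 95% interval of the difference between 1000 and 100 nM was -0.06 to 0.36. The 300 nM libraries were all above the 100 nM libraries, with a difference of 0.22 on the log2 scale (95% interval 0.01 to 0.43, not adjusted) that did not pass the test over all genes (adjusted p = 0.61).

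BMF stayed higher at 24 h. It had 0.758 to 1.36 FPKM in DMSO libraries (median 1.08), 2.13, 1.89 and 1.94 FPKM at 100 nM, 2.79, 2.09 and 2.61 FPKM at 300 nM, and 2.06, 3 and 2.1 FPKM at 1000 nM. No treated library overlapped DMSO. The log2 change was 0.66 ± 0.13, 0.93 ± 0.13 and 0.87 ± 0.13 at 100, 300 and 1000 nM (SE, limma adjusted p = 0.000148, 1.52e-07 and 5.47e-07).

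BCL2L11 was on the other side of DMSO at 24 h. It had 3.61 to 4.65 FPKM in DMSO libraries (median 3.93), 3.49, 3.33 and 3.52 FPKM at 100 nM, 3.38, 2.77 and 3.27 FPKM at 300 nM, and 3.11, 3.68 and 4.45 FPKM at 1000 nM. The 100 and 300 nM libraries were below all DMSO libraries, and the 1000 nM libraries overlapped them. The log2 change was -0.21 ± 0.08, -0.33 ± 0.08 and -0.11 ± 0.08 at 100, 300 and 1000 nM (SE, limma adjusted p = 0.0609, 0.00112 and 0.286), so that only the 300 nM change passed the test. Without the 3 libraries under 2 M reads the 300 nM change was -0.22 (adjusted p = 0.0666), and in a fit of only the groups compared its adjusted p was 0.0784. With the type terms the 100 nM change also passed (-0.21, adjusted p = 0.0268). The overlapping MIR4435-2HG fell by 0.29 at 300 nM (adjusted p = 0.00149).

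Of the 10 members, 3 were called higher and 1 lower at 100 nM after 24 h, 3 higher and 2 lower at 300 nM, and 3 higher and 1 lower at 1000 nM. Of all tested genes 19.7%, 30.7% and 34.7% were called at these doses in either direction, so that the share of members called at 1000 nM is near the background. Higher were 10.5%, 16.5% and 19.1% of all tested genes, and lower were 9.2%, 14.2% and 15.6%. The called members that were higher were all BH3-only genes, which make up 6 of the 10 members. BCL2L11, called lower at 300 nM, is a BH3-only gene too (log2 change -0.33, limma adjusted p = 0.00112). The median log2 change of the 6 BH3-only members was 0.19, 0.42 and 0.46 at 100, 300 and 1000 nM, and that of the 3 pro-survival members was -0.03, -0.10 and -0.33. The median of all tested genes was 0.05, 0.05 and 0.03. The pro-survival median at 1000 nM is the value of BCL2L1, which was -0.08 with the library type terms. The BH3-only median at 1000 nM lies between the changes of PMAIP1 (0.35, not called) and BID (0.57). The second library type was itself higher for PMAIP1, by a coefficient of 0.32. In bulk RNA, fewer cells with a transcript and less of it per cell cannot be told apart.

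**Figure D3:**
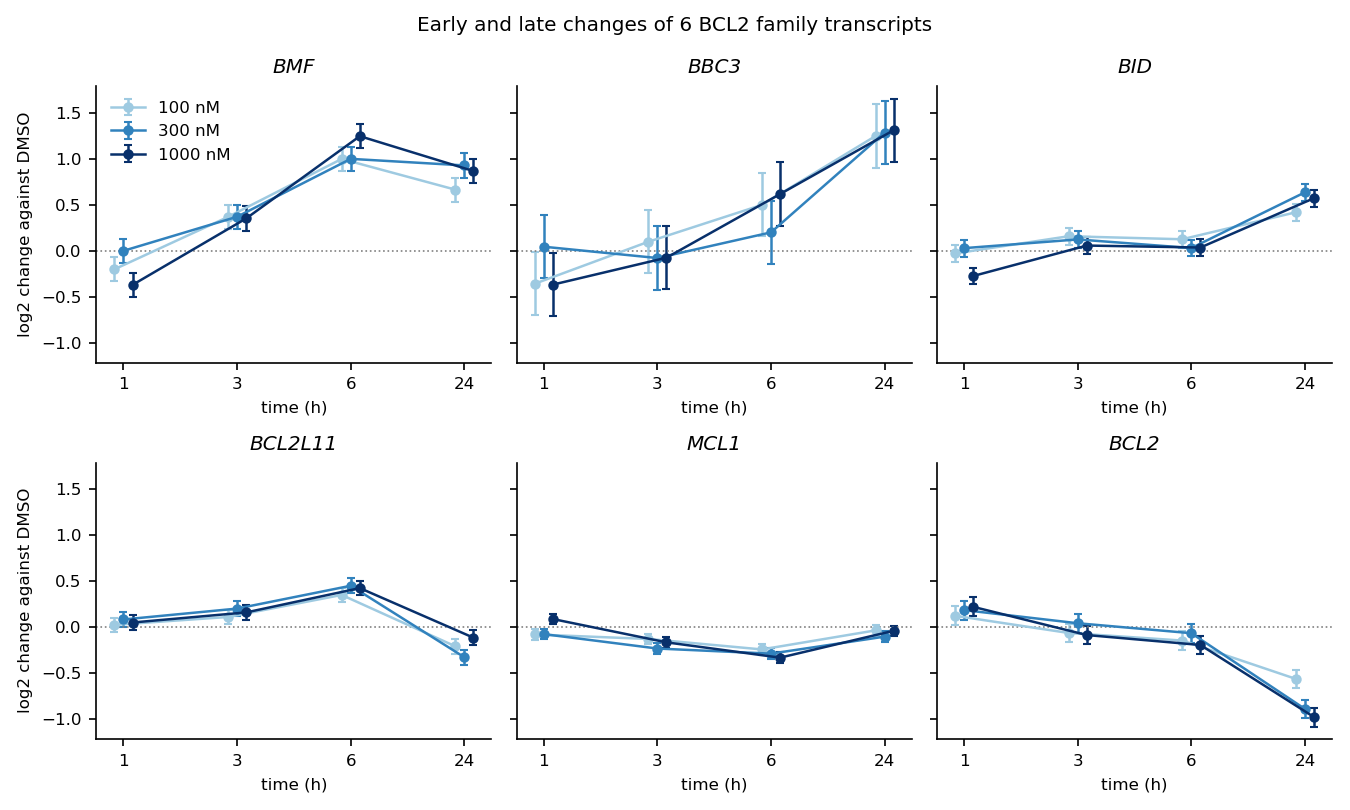
Log2 change against DMSO of the same time (vertical axes, log2(FPKM + 0.5) scale, bars are limma's SE) over 1, 3, 6 and 24 h (horizontal axes, not to scale) at 100, 300 and 1000 nM for 6 members. BMF is high at 6 h and at 24 h, BBC3 and BID are high at 24 h, BCL2L11 and MCL1 lie farthest from 0 at 6 h, and BCL2 is low at 24 h.

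The change between 6 and 24 h was tested directly. At 1000 nM, 4 members were called: the effect on BCL2 moved by -0.78 ± 0.14, that on BCL2L11 by -0.54 ± 0.11, that on BID by 0.54 ± 0.13 and that on MCL1 by 0.29 ± 0.08 on the log2 scale (SE, limma adjusted p = 6.49e-05, 0.000411, 0.00211 and 0.00726), with 15.1% of all tested genes called. With voom the MCL1 difference was 0.19 (adjusted p = 0.166). In libraries of the first type it was 0.15 (adjusted p = 0.147), again with 1 library left at 1000 nM and 24 h. At 300 nM, 3 members were called, BCL2 (-0.82 ± 0.14), BCL2L11 (-0.78 ± 0.11) and BID (0.61 ± 0.13; SE, limma adjusted p = 3.5e-05, 1.04e-06 and 0.000547), with 13.9% of all genes called. At 100 nM BCL2L11 alone was called (-0.56 ± 0.11, adjusted p = 0.00133), with 3.35% of all genes called. The contrasts at the lower doses were added after the values had been seen. For BMF the difference at 1000 nM was -0.38 ± 0.19 (adjusted p = 0.184), which does not show that its effect was the same at both times. With the type terms BBC3 (1.23, adjusted p = 0.00782) and BCL2L1 (0.38, adjusted p = 0.00111) were called as well at 1000 nM. In that fit 27.4% of all tested genes were called.

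The remaining members did not pass the test at 24 h over all libraries. PMAIP1 had 28.2 to 40.7 FPKM in DMSO libraries (median 35.7), 32.2, 36.2 and 34.9 FPKM at 100 nM, 35.4, 45 and 37.4 FPKM at 300 nM, and 51.1, 37 and 47.7 FPKM at 1000 nM. The high values at 300 and 1000 nM were libraries of the second type, whose coefficient for PMAIP1 was 0.32 ± 0.05. Its log2 change at 1000 nM was 0.35 ± 0.14 (limma adjusted p = 0.0509), 0.19 with the type terms (adjusted p = 0.125), and 0.39 without the libraries under 2 M reads (adjusted p = 0.024). BAX had 17.6 to 30.3 FPKM in DMSO libraries (median 28.6), 26.4, 27.7 and 24.2 FPKM at 100 nM, 25.9, 12.4 and 27.5 FPKM at 300 nM, and 16, 28.8 and 15.3 FPKM at 1000 nM. Each of the values under 18 FPKM was a library of the second type, in DMSO as in treated cells, and the coefficient of that type was -0.78 ± 0.06. The BAX change at 1000 nM was -0.41 ± 0.26 (adjusted p = 0.234), and -0.01 with the type terms (adjusted p = 0.928).

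BCL2L1 had 113 to 191 FPKM in DMSO libraries at 24 h (median 170), 170, 170 and 163 FPKM at 100 nM, 166, 124 and 164 FPKM at 300 nM, and 120, 162 and 108 FPKM at 1000 nM. The 4 values under 130 FPKM were of the second type. The log2 change at 1000 nM was -0.33 ± 0.15 (limma adjusted p = 0.0946), -0.08 with the type terms (adjusted p = 0.289), and -0.38 with voom (adjusted p = 0.0302). MCL1 had 58 to 62.7 FPKM in DMSO libraries at 24 h and 54.2 to 62.8 FPKM at 1000 nM, and its change was -0.04 ± 0.06 (95% interval -0.15 to 0.08; adjusted p = 0.647). At 300 nM the MCL1 change was -0.10 ± 0.06 (adjusted p = 0.18), and -0.12 with the type terms (adjusted p = 0.0261). BIK, whose protein sits in the endoplasmic reticulum, had 0 to 88 reads per library over the series and was at 0 reads in 5 libraries, which allows up to 0.553 to 2.12 FPKM in them (3 reads). Its largest log2 change at any dose and time was -0.42, and none passed the test over all libraries. Within the first type its change at 300 nM and 24 h was 0.64 (adjusted p = 0.0491).

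**Figure D4:**
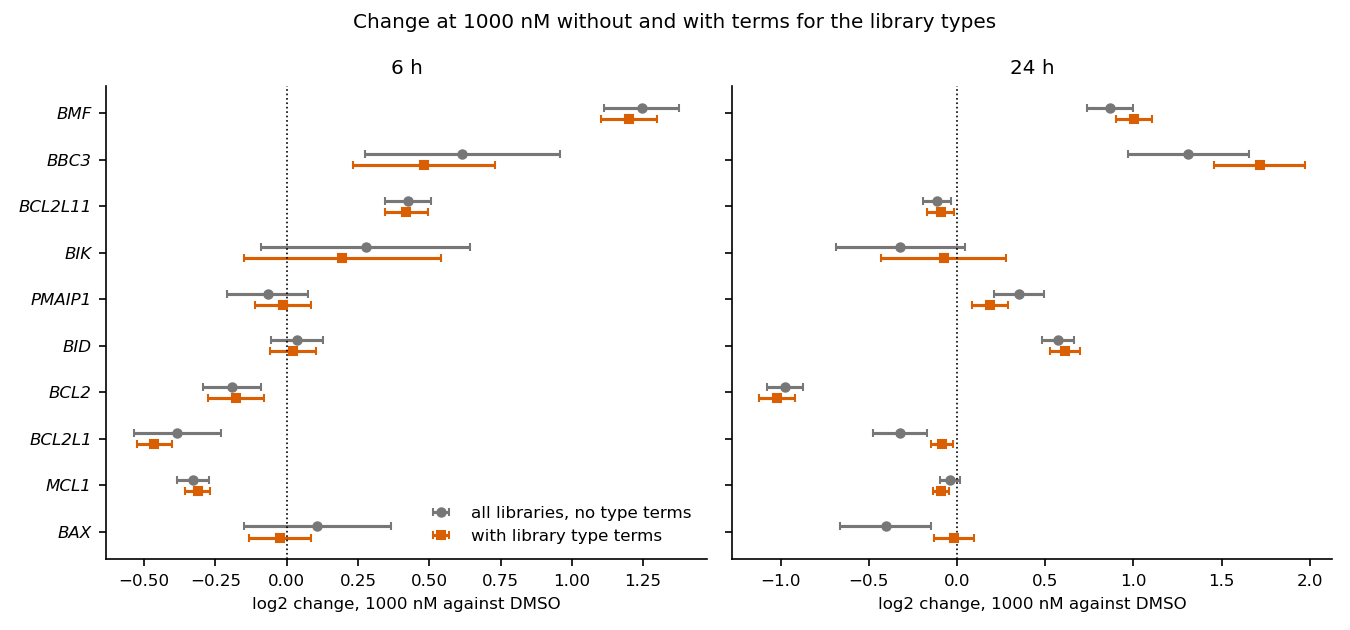
Log2 change at 1000 nM against DMSO (horizontal axes, log2(FPKM + 0.5) scale, bars are limma's SE) of each member after 6 h and 24 h, without (grey circles) and with (orange squares) terms for the 3 library types. At 24 h BAX and BCL2L1 lie near 0 with the terms and BBC3 moves further above 0, while BMF, BID and BCL2 keep their side of 0 in both fits.

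In vehicle cells 3 members differed between 24 h and 1 h, with 18.2% of all tested genes called. BCL2L11 was higher by 0.23 ± 0.07, PMAIP1 by 0.33 ± 0.12 and BCL2 lower by a log2 change of -0.29 ± 0.08 (SE, limma adjusted p = 0.0103, 0.0379 and 0.0118). The PMAIP1 call was lost without any of 7 DMSO libraries (adjusted p up to 0.127), and 3 of the DMSO libraries at 1 h were of the third type. Without the third type BCL2L11 and PMAIP1 did not pass (adjusted p = 0.0575 and 0.41).

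Of 62 further genes of apoptosis in 9 lists, 55 were tested. At 1000 nM none was called after 1 or 3 h, 1 was higher after 6 h and 20 were higher and 8 lower after 24 h, where 0%, 0.132%, 2.01% and 34.7% of all tested genes were called at 1, 3, 6 and 24 h. The gene called at 6 h was APAF1, the scaffold of the apoptosome, with 6.93 ± 0.169 FPKM at 1000 nM and 5 ± 0.595 FPKM in DMSO cells (SD, n = 3 and 6) and a log2 change of 0.44 ± 0.11 (limma adjusted p = 0.0132). APAF1 changed by 0.44 ± 0.11 at 24 h too (adjusted p = 0.001). The median log2 change of the 55 genes at 24 h was 0.16, with 0.03 for all tested genes.

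Among the apoptosome, caspases and their inhibitors, 5 of 14 were higher and 2 lower at 1000 nM and 24 h. For this list and those that follow, 19.1% of all tested genes were called higher and 15.6% lower in the same comparison. BIRC3, an inhibitor of apoptosis with ubiquitin ligase activity, rose by 0.93 ± 0.17 (limma adjusted p = 1.08e-05), and XIAP, which binds caspases, by 0.70 ± 0.13 (adjusted p = 3.88e-05). CYCS, which encodes cytochrome c, fell to 27.4 ± 6.42 FPKM at 1000 nM, against 43.1 ± 8.4 FPKM in DMSO cells (SD, n = 3 and 6), a log2 change of -0.65 (adjusted p = 0.00546). In the death receptor pathway 7 of 13 were higher and 0 lower, beside 19.1% and 15.6% of all tested genes. TNFSF10, the gene of the ligand TRAIL, had 58.5 ± 10.2 FPKM at 1000 nM and 30.7 ± 6.66 FPKM in DMSO cells (log2 change 0.93, adjusted p = 1.1e-06). TNFRSF10D, a decoy receptor for TRAIL, rose by 0.97 ± 0.15 (adjusted p = 8.47e-07), and CASP10, an initiator caspase, by 0.60 ± 0.12 (adjusted p = 8.12e-05).

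Closer relatives of the family were mixed. BCL2L12 fell to 8.33 ± 4.5 FPKM at 1000 nM, against 14.3 ± 3.44 FPKM in DMSO cells (log2 change -0.85, limma adjusted p = 0.0188). The second library type was lower for it by a coefficient of -0.81, and with the type terms the change was -0.45 (adjusted p = 0.0333). Of 5 tested genes with BCL2L or BNIP names outside these groups, 3 were higher. BNIP3L rose by 0.59 ± 0.11, BNIP3 by 0.47 ± 0.09 and BCL2L13 by 0.30 ± 0.07 (limma adjusted p = 1.4e-05, 8.36e-05 and 0.000735). All 3 encode proteins of the outer mitochondrial membrane that act in mitophagy. Neither of the 2 tested effector genes outside the members, BAK1 and BOK, passed the test, and of the 3 channels of that membrane VDAC1 fell by 0.34 ± 0.05 (adjusted p = 1.13e-07).

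Of 6 binding partners and ubiquitin enzymes of the family's proteins, 2 were higher and 1 lower at 24 h. USP9X, which removes ubiquitin from MCL1, rose by 0.31 ± 0.10 and DYNLL1, a dynein light chain, by 0.20 ± 0.06 (limma adjusted p = 0.0163 and 0.0075). DYNLL2, the light chain known to hold BMF, fell by 0.22 ± 0.08 (adjusted p = 0.03). Of 9 transcription factors known to act on BH3-only genes, 3 were higher and 3 lower. E2F1 fell to 10.1 ± 3.87 FPKM at 1000 nM, against 38.8 ± 8.85 FPKM in DMSO cells (log2 change -1.92, adjusted p = 1.19e-10), and TP73, a transcription factor that can induce BBC3 and PMAIP1, fell by 0.82 ± 0.20 (adjusted p = 0.0011). FOXO4, a forkhead factor, rose to 3.69 ± 0.626 FPKM at 1000 nM, against 1.48 ± 0.457 FPKM in DMSO cells (log2 change 1.11, adjusted p = 7.23e-07). Of the 28 genes of these lists called at 1000 nM and 24 h, where 2 of 3 libraries were of the second type, 27 were also called with the library type terms. With these terms 47.5% of all tested genes were called in that comparison, against 34.7% without them. Among the genes named, the terms moved USP9X to 0.18 (adjusted p = 0.0163) and DYNLL2 to -0.14 (adjusted p = 0.0241), by over 1.5 times as for BCL2L12. The second type was itself higher for USP9X by a coefficient of 0.26, for TNFSF10 by 0.43 and for BIRC3 by 0.45, and with the terms the changes of TNFSF10 and BIRC3 were both 0.71 (adjusted p = 1.76e-13 and 3.07e-07). Not tested for low values were BCL2A1, BCL2L10, HRK, BCL2L14, BCL2L15, DIABLO and FASLG.

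**Figure D5:**
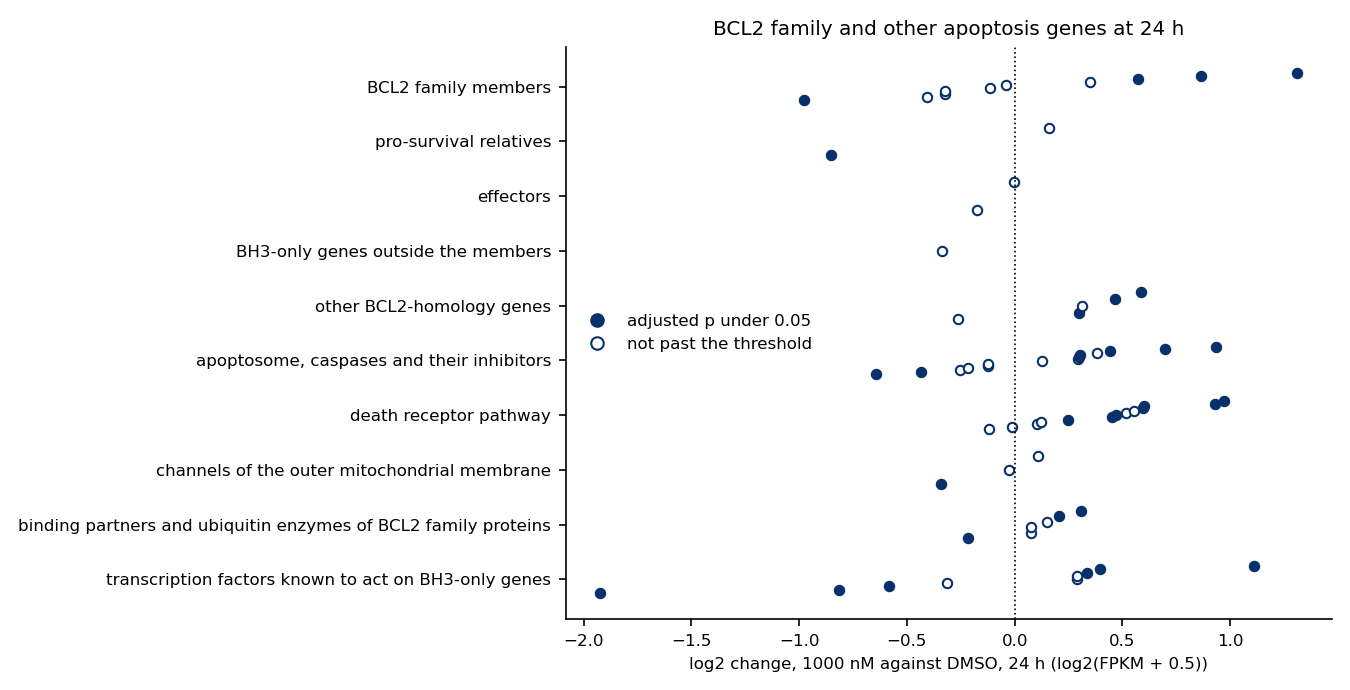
Log2 change at 1000 nM against DMSO after 24 h (horizontal axis, log2(FPKM + 0.5) scale) of the 10 BCL2 family members and of 55 other apoptosis genes by list (vertical axis); filled points have a limma adjusted p under 0.05. The death receptor list has 7 filled points, all above 0, and E2F1, at -1.92, is the lowest point.

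The genes whose 16 group means most resembled those of BBC3, the member with the largest change on the log2(FPKM + 0.5) scale, were GPER1 (Pearson r = 0.986), DYRK1B (0.985), CSPG4 (0.979), SLCO4A1 (0.977) and KLF2 (0.974). These values describe 16 group means, which share library types and depth. The log2 change of these genes at 1000 nM after 24 h was 1.25, 1.27, 1.56, 1.70 and 2.61, beside 1.31 for BBC3.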

How the data were processed

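RNA of 60 libraries was sequenced as single reads from stranded, poly(A)-selected libraries, per the labels' protocols. Per the submitters' processing notes, STAR 2.4.2a, featureCounts 1.4.6-p2 and DESeq2 were used with hg19. The deposited table holds log2 values, log2(FPKM + 1), which were converted back to FPKM; the tests had been written for FPKM. Whole reads were recovered from the steps of the FPKM values: all 1304094 values above 0 were within 0.01 read of a whole number (100%).

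The tests used limma 3.58.1 (R 4.3.3, trend and robust) on log2(FPKM + 0.5), with 16 group means, 44 residual degrees of freedom, and Benjamini-Hochberg adjustment over 15866 genes within each comparison at a threshold of 0.05. Tested on simulated data at 1000 nM and 24 h, it called 86% of 50 genes raised 2-fold, 44.9% of 49 raised 1.5-fold, 89.6% of 48 lowered to 0.5 and 20.4% of 49 lowered to 0.667 of their level. The simulated counts had the same spread setting for all genes and no library types. These shares therefore do not give the power of the real comparison. The members, the gene lists and the library types were chosen with earlier results of these data known. All 10 members are named, with up to 3 called genes of each other list at 24 h, any called at 3 or 6 h, and the 5 genes most like the member with the largest change on this log2 scale at 1000 nM and 24 h. The alternatives were a pseudocount of 0.1, no filter, median-of-ratios scaling, array weights, voom on recovered reads, library type terms or subsets, only the groups compared, no libraries under 2 M reads, and leaving out each library. Limits for a count of 0 cover counting error only, since reads carry no molecular identifiers. Intervals of log2 changes were taken from limma's SE, which rests on the spread between libraries of a group.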

Additional observations from a re-analysis of the deposited data

Results flagged for a closer look

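In DMSO groups, 5 of 40 checks of 6 libraries had a highest or lowest library far from the others, where chance gives about 1 in 20. BCL2L1 was low in replicate 3 at 1 h (114 FPKM) and replicate 6 at 3 h (132 FPKM), and BAX was low in the same libraries (15.5 and 16.3 FPKM). BIK was high in replicate 2 at 24 h (2.17 FPKM, from 1 read). All 5 values came from libraries of the second type, and the part of the type in them was not tested.

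The effect of BAY2506856 differed between times for 5 members by the tests of the difference. At 1000 nM the BMF effect was larger at 6 h than at 3 h by 0.894. From 6 h to 24 h the 1000 nM effect moved by 0.292 for MCL1, -0.539 for BCL2L11, -0.784 for BCL2 and 0.536 for BID. At 300 nM it moved by -0.777 for BCL2L11, -0.823 for BCL2 and 0.606 for BID, and at 100 nM by -0.558 for BCL2L11, all on the log2 scale. These have been described with their errors among the results, where the BMF and MCL1 calls were lost under some other settings. Of all tested genes, 0.227% were called for the 1000 nM effect at 6 h against 3 h. From 6 h to 24 h, 15.1%, 13.9% and 3.35% were called at 1000, 300 and 100 nM.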

How the results depend on the processing

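No paired analysis was possible because the labels give the libraries only serial numbers, which the groups do not share. Counts below are members called of 10. Array weights called more: 7 at 1000 nM and 1 h; 3, 5 and 3 at 1000, 300 and 100 nM and 3 h; 5 at each dose at 6 h; 8 and 8 at 1000 and 300 nM and 24 h. They also gave 4 between 1000 and 100 nM at 1 h and 4 at 24 h, 5 in both other dose steps, 7, 4 and 7 for the 1000 nM effect at 3 against 1 h, 6 against 3 h and 24 against 6 h, 6 and 5 for that from 6 to 24 h at 300 and 100 nM, and 29, 17 and 11 genes of the other lists at 1, 3 and 6 h. The share of all tested genes that they called rose too, to 40.2% at 1000 nM and 1 h, between 19.3% and 24% at 3 h, between 7.42% and 13.6% at 6 h, 52.5% and 54.9% at 300 and 1000 nM and 24 h, 14.2% to 47.5% in those dose steps and 19.8% to 43.7% for those effects. They turned the BBC3 difference between 1000 and 300 nM at 24 h to -0.74 (adjusted p = 0.0258), against 0.03.

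Library type terms gave 1 at 1000 nM and 3 h, 2 between 1000 and 100 nM at 24 h, 1 and 2 for the change of the 1000 nM effect to 3 and 6 h, 6 and 4 for that from 6 to 24 h at 300 and 100 nM, and 5 other genes at 6 h. In these they called 0.227%, 7.92%, 0.12%, 0.637%, 28.7%, 10.8% and, at 6 h, 4.65% of all tested genes. The first type alone gave 0, 2, 6, 4 and 9 for the dose step at 24 h, the 3 to 6 h change, the 6 to 24 h changes at 300 and 100 nM, and the other genes at 6 h, where it called 5.2%, 1.34%, 25.4%, 15.3% and 7.7% of all tested genes; it leaves 1 library at 1000 nM and 24 h. Fits of only the groups compared gave 1 at 100 nM and 6 h, 3 at 300 nM and 24 h, 0 between 1000 and 100 nM at 24 h, 0 for the 3 to 6 h change, 0 for DMSO over time, and 0 and 17 other genes at 6 and 24 h, with 0.309%, 17%, 0.0189%, 0.139%, 6.38%, 0.737% and 18.8% of all tested genes called. A pseudocount of 0.1 and voom each gave 1 between 300 and 100 nM, with 1.25% and 2.48% of all tested genes called. Each gave 2 for the 100 nM change from 6 to 24 h, with 3.21% and 4.95% called. Voom gave 2 other genes at 6 h, with 2.88% of all tested genes called. The 3 to 6 h change had 0 without the third type and 0 without libraries under 2 M reads, with 0.303% and 0.233% called. The first of these gave 1 for DMSO over time, with 8.22% of all tested genes called. The second gave 2 other genes at 6 h, with 2.91% called. The cause was not tested.

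Leaving out each library gave 1 to 3 at 100 nM and 6 h, 2 to 4 at 300 nM and 6 h, 3 at 1000 nM and 6 h, 4 to 6 at 1000 and 300 nM and 24 h, and 4 to 5 at 100 nM and 24 h. It gave 0 to 3 between 1000 and 100 nM at 24 h, 0 to 1 at 300 nM and 3 h, 0 to 1 for the changes of the 1000 nM effect to 3 h and to 6 h, 4 for that to 24 h, 3 to 4 and 1 to 2 for it at 300 and 100 nM, 2 to 3 for DMSO over time, and 0 to 1 and 23 to 32 other genes at 6 and 24 h. The shares of all tested genes with a library left out are not given here, so these counts have no background beside them. Few reads limit BIK, BBC3 and BCL2.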
